A study of Mus musculus with 15 samples.

Results

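Sox4, H2afx, Tbcc, Ppp1r35, Abhd17a and Mgat4b are 6 mouse genes whose RNA was low in blood stem and progenitor cells lacking Tet2 and high in cells that lacked Tet2 and also carried the activating Nras(G12D) mutation. The members were selected on their deposited log2 CPM in exactly those groups, for a large rise between them, so their levels in the Tet2-/- and the non-leukemic Tet2-/- Nras(G12D) libraries are given as a description, with no test. The deposited table held 44827 genes, 13927 of them were expressed enough to be tested, and all 6 were among these. The cells were bone marrow LSK cells from C57BL/6 mice, which lack lineage markers, carry Sca1 and cKit and are rich in stem and early progenitor cells.

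The libraries formed 5 groups of 3, namely leukemic Tet2-/- Nras(G12D) animals, non-leukemic Tet2-/- Nras(G12D) animals, Nras(G12D) animals, Tet2-/- animals and WT animals. The non-leukemic group is called the double mutant below and the other the leukemic double mutant. The mutations were conditional and specific to blood-forming tissue, and the Cre line is not given in the sources used here. An age of 6 months is stated for the animals of the study's methylation arm. Only the leukemic libraries carry the code BMT in their labels, whose meaning was not established here, so leukemia and whatever the code stands for cannot be told apart. The labels do not state whether each library of a group is a separate animal, so the p-values cover library-to-library spread that may be technical.

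The 6 genes belong to different parts of cell biology. Sox4 encodes an HMG-box transcription factor that is needed for B cell development and is a known target of retroviral insertions in mouse myeloid leukemia. H2afx encodes the histone variant H2AX, which is phosphorylated next to DNA double-strand breaks. Tbcc encodes tubulin cofactor C, which acts in the last step of assembling the alpha- and beta-tubulin pair, and Ppp1r35 encodes a regulator of protein phosphatase 1 that is needed for centriole elongation in human cells. Abhd17a encodes a depalmitoylase that removes the lipid anchor holding N-Ras at membranes, as shown for the human protein, and Mgat4b encodes a Golgi enzyme that adds a branch to N-linked glycans.

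In GRCm38 the genes lie on 6 different chromosomes. Sox4 is on chromosome 13 (28948919 to 28953713, minus strand), H2afx on chromosome 9 (44334694 to 44336077, plus strand) and Tbcc on chromosome 17 (46890684 to 46891847, plus strand). Ppp1r35 is on chromosome 5 (137778849 to 137780110, plus strand), Abhd17a on chromosome 10 (80583654 to 80590341, minus strand) and Mgat4b on chromosome 11 (50210890 to 50235103, plus strand). The first 3 have a single exon in the transcript used here, and the others have 4, 5 and 15. Exons of Gm26735, a long non-coding RNA annotated on the opposite strand, share 2616 of the 4795 exonic bases of Sox4. Whether counting used strand is not given in the sources used here. Gm26735 had at most 0.0453 CPM, a gene's count relative to the size of its library, in any library. That level cannot show whether reads on the shared bases were counted for Sox4.

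The promoters of Sox4, Tbcc, Ppp1r35 and Abhd17a, the 4 members found in the promoter table, are printed so that their base composition and motifs can be compared. They are RefSeq windows of GRCm38.p6, from 250 bases before to 50 bases after the annotated start, 5′ to 3′ on the gene's strand. Capitals mark matches, on either strand, to 6 motifs: CCAAT, the GC box GGGCGG, the ETS core CCGGAA, the AP-1 site TGANTCA, the cAMP response element core TGACGTCA or the E-box CACGTG. The windows are chr13:28953650-28953949 for Sox4, chr17:46890371-46890670 for Tbcc, chr5:137778654-137778953 for Ppp1r35 and chr10:80590292-80590591 for Abhd17a.
Sox4: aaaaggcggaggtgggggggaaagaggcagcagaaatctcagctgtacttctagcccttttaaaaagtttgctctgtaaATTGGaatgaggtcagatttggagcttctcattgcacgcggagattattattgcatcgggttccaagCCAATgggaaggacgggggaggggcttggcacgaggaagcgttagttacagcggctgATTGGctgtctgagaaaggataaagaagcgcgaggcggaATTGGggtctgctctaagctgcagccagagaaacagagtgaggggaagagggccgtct
Tbcc: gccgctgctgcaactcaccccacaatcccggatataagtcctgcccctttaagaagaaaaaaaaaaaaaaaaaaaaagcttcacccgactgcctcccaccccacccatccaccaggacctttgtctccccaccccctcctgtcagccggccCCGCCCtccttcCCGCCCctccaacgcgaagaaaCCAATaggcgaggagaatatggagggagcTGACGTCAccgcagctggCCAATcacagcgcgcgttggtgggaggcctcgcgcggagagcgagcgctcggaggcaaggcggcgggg
Ppp1r35: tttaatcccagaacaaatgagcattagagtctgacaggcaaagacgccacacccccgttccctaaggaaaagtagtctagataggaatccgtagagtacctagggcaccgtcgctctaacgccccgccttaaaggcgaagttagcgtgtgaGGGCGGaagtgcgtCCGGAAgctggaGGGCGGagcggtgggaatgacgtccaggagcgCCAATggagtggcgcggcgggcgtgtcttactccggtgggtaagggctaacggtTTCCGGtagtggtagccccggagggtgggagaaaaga
Abhd17a: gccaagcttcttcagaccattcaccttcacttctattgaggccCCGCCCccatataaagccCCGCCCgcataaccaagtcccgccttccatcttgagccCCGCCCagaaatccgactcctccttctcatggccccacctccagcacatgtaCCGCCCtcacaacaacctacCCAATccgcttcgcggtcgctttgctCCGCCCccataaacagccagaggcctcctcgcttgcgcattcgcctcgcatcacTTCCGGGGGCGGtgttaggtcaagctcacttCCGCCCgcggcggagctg

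CCAAT was found in each of the 4 windows, 4 times in Sox4, 2 times in Tbcc and 1 time each in Ppp1r35 and Abhd17a, and 37.4% of the 32851 mouse promoters in the same table hold it. GGGCGG was absent from the Sox4 window and occurred 2 times in Tbcc, 2 times in Ppp1r35 and 7 times in Abhd17a, against 35.7% of promoters with at least 1. CCGGAA occurred 2 times in Ppp1r35 and 1 time in Abhd17a (14.9% of promoters), and TGACGTCA 1 time in Tbcc (1.79% of promoters). TGANTCA (7.81% of promoters) and CACGTG (7.15%) were in none of the 4 windows. CpG density, as observed over expected CpG, was 0.994 in Ppp1r35, 0.912 in Abhd17a, 0.807 in Tbcc and 0.679 in Sox4, against a median of 0.384 over all promoters. A match is a stretch of letters and says nothing about a bound factor.

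Levels are in CPM, where each deposited log2 value was turned back to a linear scale, and they are listed for libraries 1, 2 and 3 of each group. Sox4 was at 33.3, 3.38 and 23.5 CPM in the leukemic double mutant and at 14.8, 187 and 262 CPM in the double mutant. Nras(G12D) libraries had 17.2, 23.1 and 4.41 CPM, and Sox4 was at 2.82, 3.91 and 3.72 CPM in Tet2-/- and at 3.37, 11.1 and 4.89 CPM in WT. The highest values were those of double mutant libraries 2 and 3, and leukemic library 2 lay at the level of the lowest WT library. The Tet2-/- values overlapped the WT values, so low Sox4 was not particular to Tet2-/- libraries. In the double mutant the mean was 155 ± 127 CPM, against 3.48 ± 0.579 CPM in Tet2-/- (SD, n = 3 each), and the SD of the double mutant was close to its mean.

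H2afx was at 158, 182 and 219.6 CPM in the leukemic double mutant and at 118, 312 and 239.6 CPM in the double mutant. Nras(G12D) libraries had 134, 216 and 35.6 CPM, Tet2-/- libraries 2.70, 33.9 and 6.68 CPM, and WT libraries 29.4, 109 and 68.3 CPM. Double mutant and leukemic values were above each WT value, while Tet2-/- library 2 lay above the lowest WT library. H2AX mRNA exists as a polyadenylated and a non-polyadenylated form, known from human cells, and the libraries were made with a kit for polyadenylated mRNA, so the other form is largely missed.

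Tbcc was at 22.8, 42.8 and 49.6 CPM in the leukemic double mutant and at 13.6, 38.0 and 44.9 CPM in the double mutant. Tbcc levels were 13.8, 26.5 and 4.17 CPM in Nras(G12D), 0.743, 4.67 and 0.431 CPM in Tet2-/- and 4.90, 13.3 and 8.44 CPM in WT. The Tet2-/- libraries lay below each WT library and the double mutant libraries above each, with narrow gaps on both sides. Tet2-/- libraries 1 and 3 rest on 17 and 13 counts.

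Ppp1r35 was at 30.0, 33.3 and 52.0 CPM in the leukemic double mutant and at 19.2, 58.4 and 80.6 CPM in the double mutant. The values were 19.9, 32.4 and 4.78 CPM in Nras(G12D), 0.531, 5.81 and 0.590 CPM in Tet2-/- and 5.09, 16.9 and 12.1 CPM in WT. Double mutant libraries lay above each WT library, and Tet2-/- library 2 lay within the WT range. Tet2-/- libraries 1 and 3 again stood lowest, on 12 and 18 counts.

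Abhd17a was at 82.2, 113 and 142 CPM in the leukemic double mutant and at 25.6, 115 and 122 CPM in the double mutant. Its level was 34.7, 66.4 and 10.3 CPM in Nras(G12D), 1.21, 7.59 and 1.93 CPM in Tet2-/- and 9.39, 27.2 and 16.3 CPM in WT. The 3 leukemic libraries lay above each Nras(G12D), Tet2-/- and WT library, and double mutant library 1 lay within the WT range.

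Mgat4b was at 44.4, 31.8 and 39.8 CPM in the leukemic double mutant and at 10.7, 52.0 and 52.4 CPM in the double mutant. Nras(G12D) libraries had 22.1, 16.9 and 3.27 CPM, Tet2-/- libraries 0.913, 3.22 and 0.814 CPM, and WT libraries 3.83, 12.2 and 6.57 CPM. Leukemic values were again above each Nras(G12D) and WT value and lay close together, whereas the double mutant values differed 4.88-fold between the lowest and the highest.

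**Figure D1:**
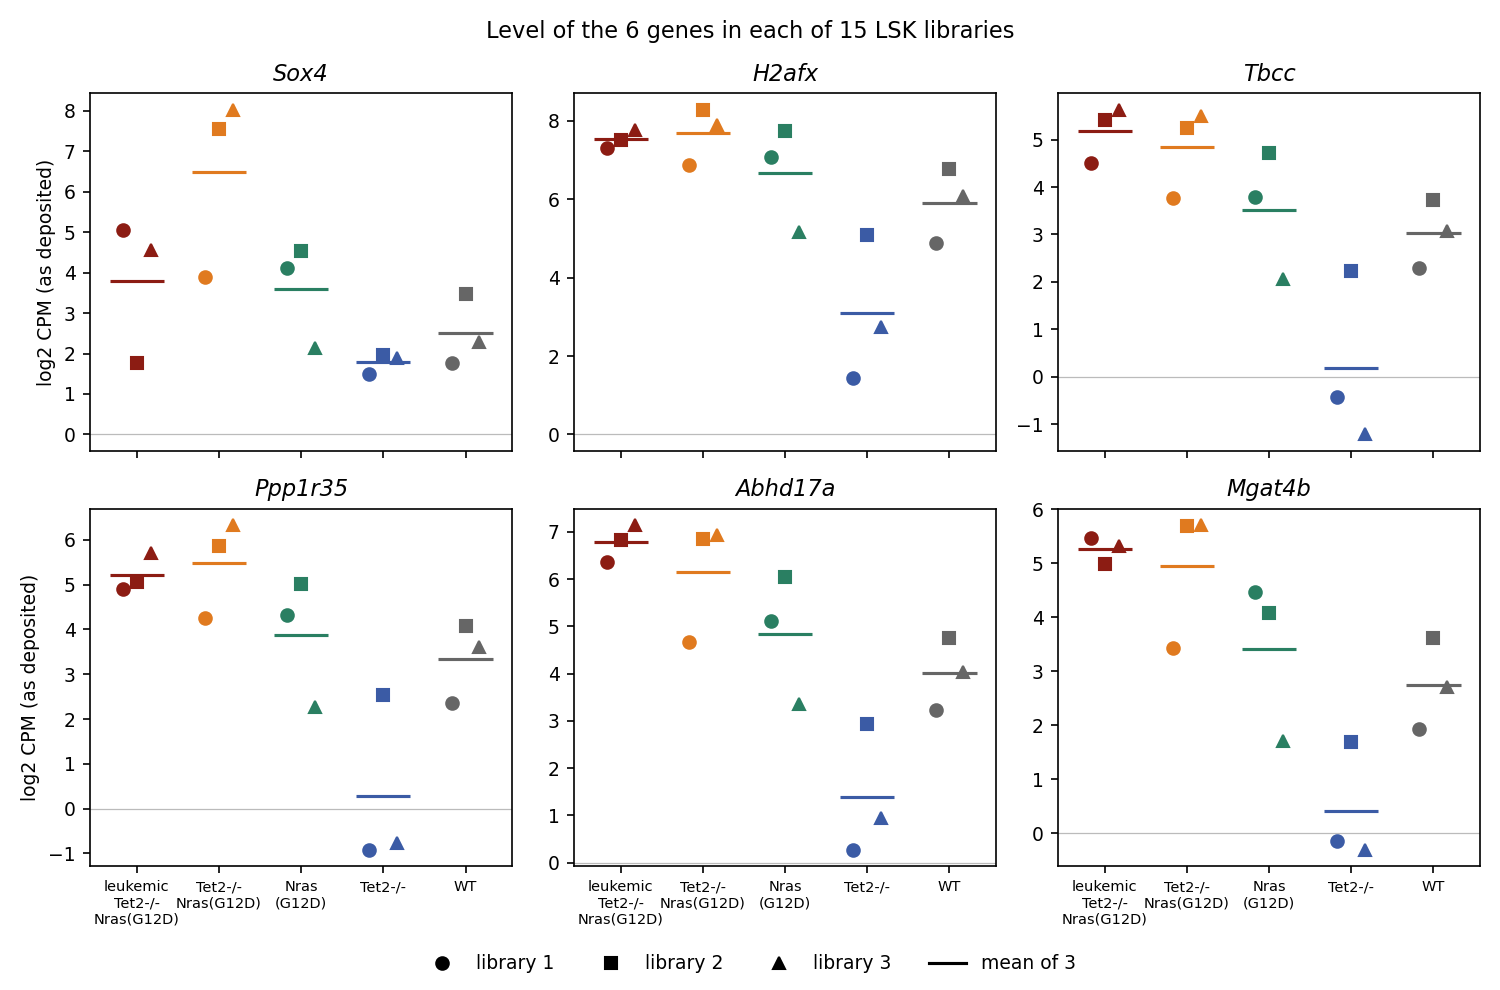
Level of each of the 6 genes in the 15 LSK libraries, with the deposited log2 CPM on the y axis and the 5 groups on the x axis. Each point is 1 library, its shape gives the library number and the bar is the mean of 3. In each panel the double mutant libraries lie above the Tet2-/- libraries, the contrast by which the genes were picked, and double mutant library 1 is the lowest of its group.

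By group mean, H2afx, Ppp1r35 and Sox4 stood highest in the double mutant, then the leukemic double mutant, and Tbcc, Abhd17a and Mgat4b had these groups in the other order. For each gene Nras(G12D) came next, then WT, then Tet2-/-. Neighbours in this order overlapped in their library ranges except WT and Tet2-/- for Tbcc, Abhd17a and Mgat4b. Per kilobase of transcript, the WT means were 49.7 CPM per kb for H2afx, 12 for Abhd17a, 11.9 for Ppp1r35, 7.63 for Tbcc, 3.11 for Mgat4b and 1.35 for Sox4.

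In the contrast that chose them, the double mutant minus Tet2-/- differences on the log2 scale were 5.20 for Ppp1r35, 4.77 for Abhd17a, 4.70 for Sox4, 4.64 for Tbcc, 4.60 for H2afx and 4.53 for Mgat4b, or 36.8-fold to 23.1-fold. They ranked between 14 and 43 among the 13927 tested genes, 43 of which had a log2 difference above 4.5. The background of this contrast was large: limma called 20.1% of tested genes higher and 8.57% lower in the double mutant, and in 26% the 3 double mutant values lay above the 3 Tet2-/- values, as they did for the 6 members by choice. With median centring of the libraries the calls were 2020 higher and 4039 lower in place of 2806 and 1193, with quantile normalization 2327 and 2746, and with a correction for transcript GC content and length 2053 and 2198. The median of all genes moved from 0.0035 to -0.46, -0.24 and -0.21 under these scalings. Each member stayed above 2 on the log2 scale, which the choice of genes with large differences makes likely and which is no support.

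Compared with WT, the Tet2-/- differences ran from -3.05 for Ppp1r35 to -0.72 for Sox4. In 3 of the 6 genes the Tet2-/- values lay below each WT value, against a background of 12.9% of tested genes. The double mutant minus WT differences ran from 1.78 for H2afx to 3.98 for Sox4, with 4 of the 6 genes above each WT value (background 16.6%). The leukemic minus non-leukemic double mutant differences ran from -2.70 for Sox4 to 0.62 for Abhd17a. These contrasts share libraries with the one that picked the genes and were not tested.

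The leukemic double mutant against WT uses no library of the rule and tests whether the genes were also higher in the leukemic double mutant. These groups differ in both mutations, in leukemia and in the BMT code, which this comparison cannot tell apart. Abhd17a rose by a log2 of 2.77 ± 0.78 (limma estimate ± SE, Benjamini-Hochberg adjusted p = 0.0204), with means of 112 ± 29.9 CPM in the leukemic double mutant and 17.6 ± 8.96 CPM in WT (SD, n = 3 each). Mgat4b rose by 2.50 ± 0.77 (limma, adjusted p = 0.0305), with 38.6 ± 6.39 CPM in the leukemic double mutant and 7.54 ± 4.28 CPM in WT. Both genes were thus higher by 6.83-fold and 5.67-fold, in 3 of 3 libraries each. These 2 of 6 stand against 10.8% of tested genes called higher and 13.9% called lower (1505 and 1938, or 974 and 2789 with scaling by total counts).

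The other 4 members did not pass the threshold in that comparison. The log2 difference was 2.15 ± 0.82 for Tbcc (limma, adjusted p = 0.0682), 1.88 ± 0.88 for Ppp1r35 (adjusted p = 0.130) and 1.62 ± 0.81 for H2afx (adjusted p = 0.152). For Sox4 it was 1.28 ± 1.02 (limma, adjusted p = 0.371), with leukemic library 2 inside the WT range. In 5 of 6 genes, Sox4 being the exception, the 3 leukemic values lay above the 3 WT values, against 24% of tested genes. The calls of Abhd17a and Mgat4b were both lost without WT library 1 (limma, adjusted p = 0.0887 and 0.121), WT library 3, leukemic library 2 or leukemic library 3. Over the alternatives tried the limma adjusted p of Abhd17a ran from 1.2e-06 to 0.0887 and that of Mgat4b from 1.45e-05 to 0.121. These alternatives include sample quality weights, whose estimation did not converge. With such weights 37.5% of tested genes were called higher and 37.5% lower, so low values there carry little weight. When only the leukemic and WT libraries were fitted, 5 of the 6 genes passed the threshold, Sox4 again excepted. That fit called 10.7% of tested genes higher and 8.63% lower.

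Nras(G12D) against WT asks whether mutant Nras alone came with higher levels. None of the 6 genes passed the limma threshold, at an unadjusted p of 0.05 either, and with this tool 0 of 13927 genes were called (577 at an unadjusted p under 0.05). The log2 differences were 1.09 ± 1.02 for Sox4, 0.84 ± 0.78 for Abhd17a, 0.75 ± 0.81 for H2afx, 0.66 ± 0.77 for Mgat4b, 0.52 ± 0.88 for Ppp1r35 and 0.49 ± 0.82 for Tbcc. In no member did the 3 Nras(G12D) values lie above the 3 WT values, as they did for 5.52% of tested genes. Nras(G12D) library 3 was the lowest of its group for each of the 6 genes and lay below the lowest WT library for Tbcc, Ppp1r35 and Mgat4b. With sample quality weights, whose estimation did not converge, the differences of the members other than Sox4 lay between -0.55 and -0.13.

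Leukemic double mutant against Nras(G12D) libraries gave log2 differences of 1.93 ± 0.78 for Abhd17a (limma, adjusted p = 0.0923), 1.84 ± 0.77 for Mgat4b (adjusted p = 0.103), 1.66 ± 0.82 for Tbcc (adjusted p = 0.160) and 1.36 ± 0.88 for Ppp1r35 (adjusted p = 0.280). For H2afx the difference was 0.87 ± 0.81 and for Sox4 0.20 ± 1.02. No member passed the threshold, where 7.20% of tested genes were called higher (1003, with 1489 lower, or 671 and 1990 with scaling by total counts). With the GC and length correction Abhd17a and Mgat4b did pass it (limma, adjusted p = 0.0271 and 0.0432). Under that correction 9.36% of tested genes were called higher and 10.6% lower. In Abhd17a and Mgat4b the 3 leukemic values lay above the 3 Nras(G12D) values, against 13.3% of tested genes.

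**Figure D2:**
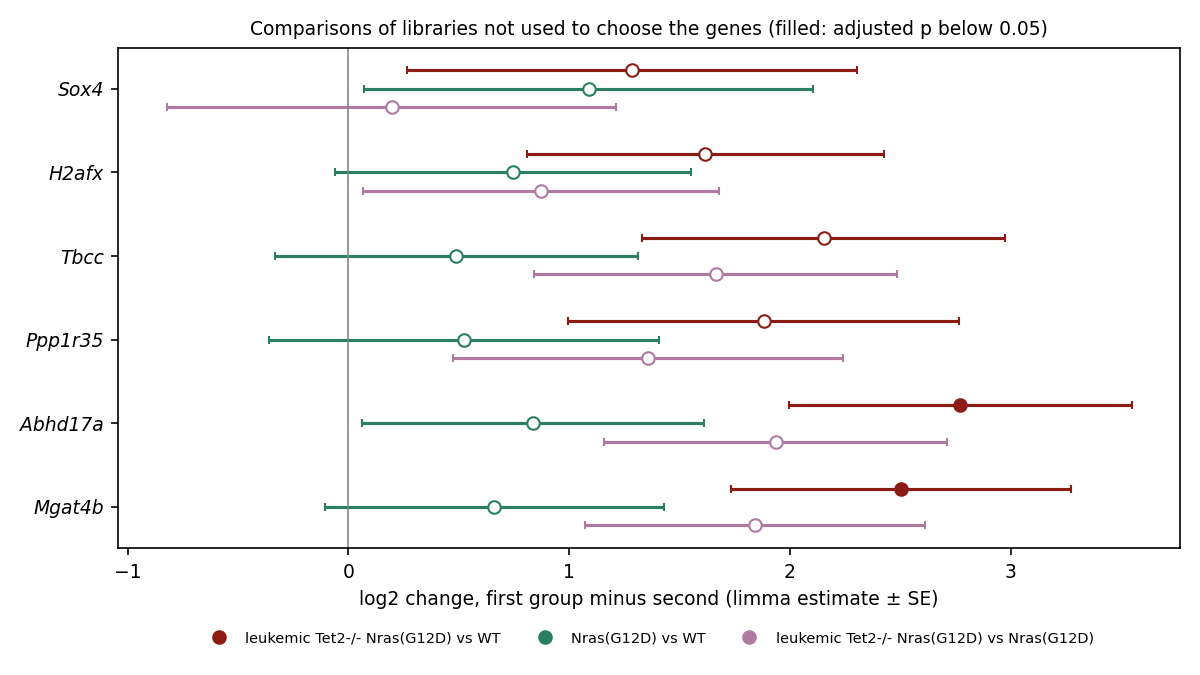
Log2 differences of the 6 genes in the 3 comparisons whose libraries did not choose them, as limma estimates with standard errors. Filled points have an adjusted p below 0.05. Those of Abhd17a (2.77) and Mgat4b (2.50) in the leukemic double mutant against WT are filled, and the other points are open.

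The order of the libraries within a group was largely shared by the 6 genes outside the leukemic group. In WT, library 2 was the highest and library 1 the lowest for each of the 6 genes, with 3.29-fold (Sox4), 3.69-fold (H2afx), 2.72-fold (Tbcc), 3.33-fold (Ppp1r35), 2.89-fold (Abhd17a) and 3.19-fold (Mgat4b) between them. Double mutant library 1 and Nras(G12D) library 3 were the lowest of their groups for each gene. In Tet2-/- library 2 was the highest for each gene. The leukemic libraries split the genes: library 1 was the highest for Sox4 and Mgat4b and the lowest for H2afx, Tbcc, Ppp1r35 and Abhd17a.

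Across the 15 libraries, Pearson's r between log2 levels of H2afx, Tbcc, Ppp1r35, Abhd17a and Mgat4b ran from 0.950 to 0.988 over their 10 pairs. Over the 9 leukemic, Nras(G12D) and WT libraries, which the rule did not use, it ran from 0.923 to 0.987. Sox4 followed them less closely, with r from 0.668 to 0.767 over 15 libraries and from 0.536 to 0.693 over 9. Set against the mean log2 level of the other 5 genes, Sox4 was lowest in leukemic library 2, at -4.20, and highest in Tet2-/- library 3 and double mutant library 3, at 1.61 and 1.56. In Tet2-/- libraries 1 and 3 the other 5 genes stood at -4.19 and -3.95 relative to their mean over 15 libraries on the log2 scale, and Sox4 at -2.13 and -1.74 relative to its own. These correlations are descriptions of genes measured in the same libraries, which differ in depth, GC trend and group.

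The genes most like the mean of the 6 standardised profiles, among 6709 genes of at least median level, were Acaa1a, a peroxisomal thiolase gene (r = 0.992 over 15 libraries and 0.989 over the 9), and Npepl1, an aminopeptidase gene (0.991 and 0.974). They were followed by Adprhl2, an ADP-ribose hydrolase gene (0.989 and 0.973), Pex7, a peroxisomal import receptor gene (0.988 and 0.988), Pxk (0.987 and 0.988) and Rcn2 (0.987 and 0.976). Acaa1a was at 59.2, 54.6 and 74.7 CPM in the leukemic double mutant, 40.6, 77.6 and 77.5 CPM in the double mutant, 37.6, 58.0 and 16.6 CPM in Nras(G12D), 5.59, 18.4 and 6.27 CPM in Tet2-/- and 16.4, 39.97 and 28.7 CPM in WT. For Sox4 alone the most alike were Pink1, a mitochondrial kinase gene (r = 0.967 over 15 and 0.907 over 9 libraries), Cerk (0.957 and 0.874) and Tm6sf1 (0.956 and 0.974). All of these genes were picked over the 15 libraries, which hold the 9, so r over the 9 is no separate check.

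What 5 of the genes share is base composition, which the rule did not use directly. The difference that chose the genes rose with GC content, as given below, so the choice favoured GC-rich genes. The transcripts of Abhd17a, Ppp1r35, H2afx, Tbcc and Mgat4b had a GC content of 64.6%, 63.6%, 62.3%, 61.3% and 60.4%, which placed each above 96.7% of tested genes, whose median was 49.8%. Sox4, with 51.1%, stood at the percentile 57.5. Of the genes most like the members' mean profile, Adprhl2 (60.3%), Acaa1a (59.4%) and Npepl1 (59.0%) lay above the median GC content of tested genes. Pxk (48.9%), Pex7 (44.0%) and Rcn2 (43.7%) lay below it. These genes were picked for their likeness to the profile, and the part of GC content in the profile was not tested. Over all tested genes the double mutant minus Tet2-/- difference moved with GC content. Its median was -0.30 in the 790 genes under 40% GC, -0.08 in the 3590 genes from 50% to 55%, 0.48 in the 2520 genes from 55% to 60%, 1.78 in the 489 genes from 60% to 65% and 3.44 in the 41 genes at 65% or more. In the range from 60% to 65%, which holds the 5 members, 63.6% of genes were called higher and 0.613% lower. The 51 tested genes with a single exon and at least 60% GC, among them H2afx and Tbcc, had a median difference of 3.06.

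The same trend was seen library by library. Spearman's rho across genes, between transcript GC content and a gene's deviation from its mean over 15 libraries, was -0.289 in Tet2-/- library 1, -0.353 in Tet2-/- library 3, -0.137 in Nras(G12D) library 3, -0.082 in Tet2-/- library 2 and -0.081 in WT library 1. It was above 0 in the other 10 libraries and highest in Nras(G12D) library 1, at 0.227. The 5 libraries with a negative rho were also the 5 with the lowest mean of the 5 GC-rich members. Tet2-/- library 1 had the lowest total count of the 15, 22733189, while Tet2-/- library 3 had 32761321, within a range that reached 43562909.

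After each library was corrected for transcript GC content and length, the double mutant minus Tet2-/- difference of Abhd17a was 2.08 in place of 4.77, that of Ppp1r35 2.88 in place of 5.20 and that of H2afx 2.62 in place of 4.60. Tbcc stood at 2.97 in place of 4.64 and Mgat4b at 3.04 in place of 4.53. Sox4 was nearly the same, at 4.47 in place of 4.70. With Tet2-/- libraries 1 and 3 left out, an alternative chosen after seeing the data, the differences were 2.61 for H2afx and Tbcc, 2.95 for Ppp1r35, 3.23 for Abhd17a, 3.26 for Mgat4b and 4.52 for Sox4, and 3 genes of the whole table were called in place of 3999. The leukemic minus WT differences moved less under the GC and length correction, Abhd17a to 2.25 and Mgat4b to 2.31, and the median of the 489 genes from 60% to 65% GC was 0.24 in that comparison.

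**Figure D3:**
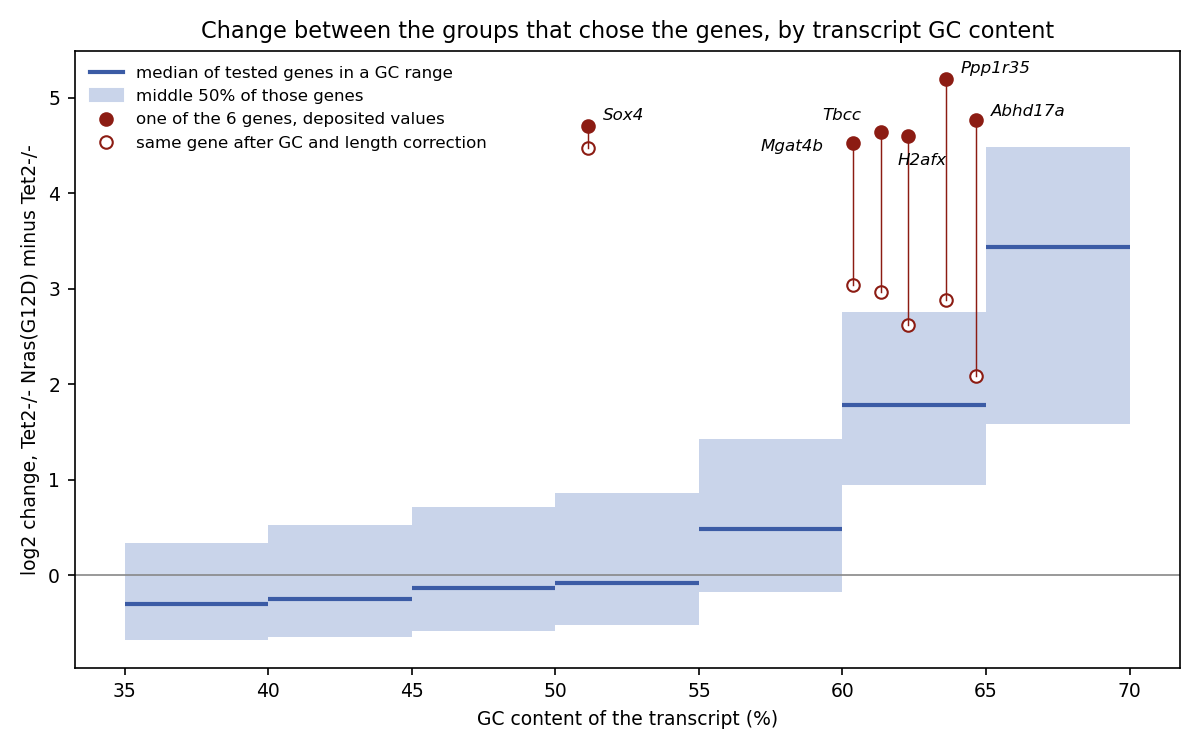
Double mutant minus Tet2-/- difference on the log2 scale against transcript GC content, with the median (line) and middle 50% (band) of tested genes in each GC range; the first range holds all genes under 40% and the last all at 65% or more. Filled points are the 6 genes as deposited and open points the same genes after the GC and length correction. The 5 GC-rich genes drop to between 2.08 and 3.04, while Sox4 stays at 4.47.

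**Figure D4:**
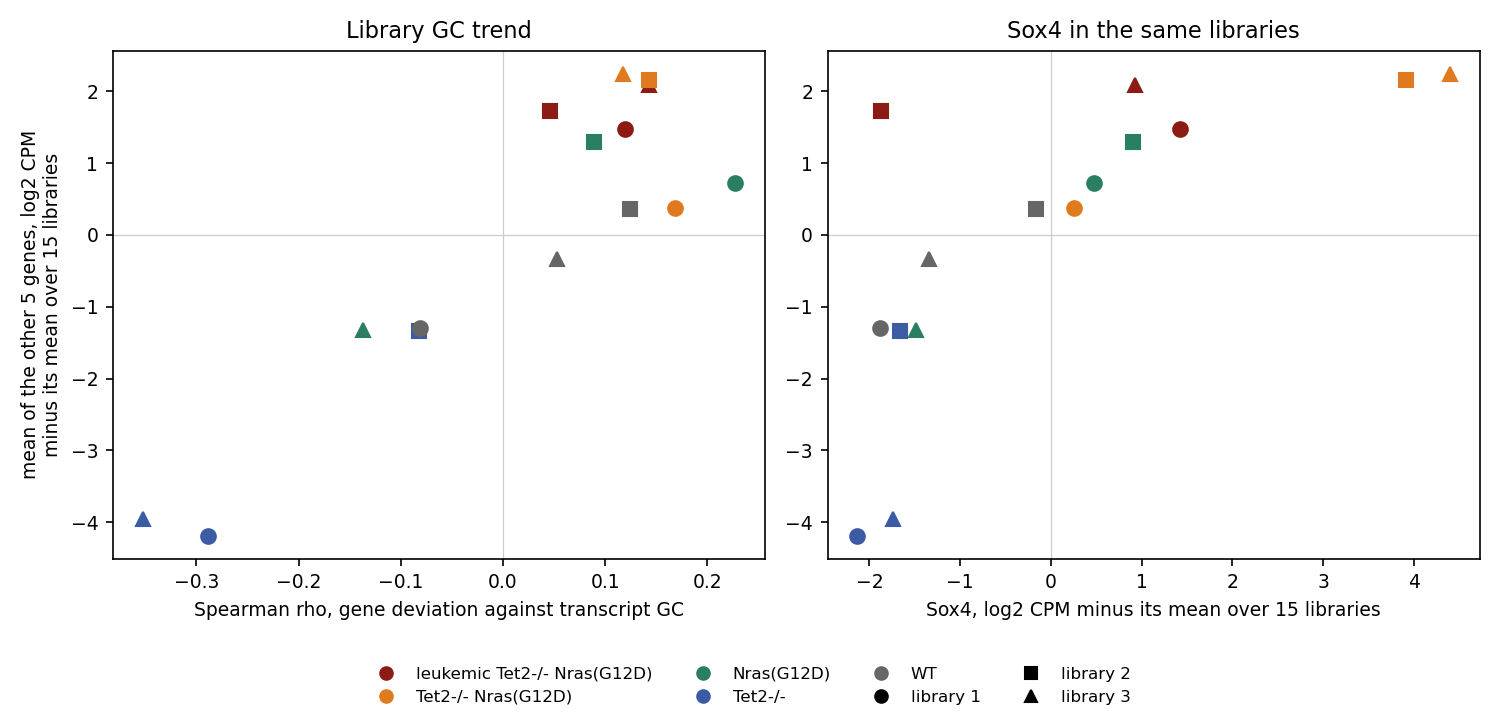
Each of the 15 libraries by the mean log2 level of the 5 GC-rich genes relative to its mean over libraries (y axes), against the library's GC trend (left, Spearman's rho across genes) and against the Sox4 level relative to its own mean (right). Tet2-/- libraries 1 and 3 lie lowest on both y axes, at -4.19 and -3.95, with the most negative GC trends.

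The cells expressed the markers of the sorted fraction. The summed level of 8 LSK and stem cell genes ran from 682 to 2735 CPM in the leukemic double mutant, 2636 to 3339 CPM in the double mutant, 2189 to 5136 CPM in Nras(G12D), 4274 to 5725 CPM in Tet2-/- and 3436 to 3941 CPM in WT. No listed marker of any cell type had 0 counts in each library of a group. Summed erythroid markers (6 genes) were at 406 to 4145 CPM in the leukemic double mutant and 122 to 196 CPM in WT, beside the rises of Abhd17a and Mgat4b. Between the same groups monocyte and macrophage markers (5 genes) were at 343 to 498 CPM in the leukemic double mutant and 268 to 290 CPM in WT, B cell markers (5 genes) at 14.8 to 37.1 CPM in the leukemic double mutant and 51.2 to 72.7 CPM in WT, and T and NK cell markers (6 genes) at 3.72 to 7.92 CPM in the leukemic double mutant and 8.06 to 9.91 CPM in WT. Thus 5 of the 9 marker lists, the LSK list included, did not overlap in that comparison. Among single tested genes, 24% had the 3 leukemic values above the 3 WT values. All 6 erythroid genes were higher without overlap. Only Ccr2 did not overlap among the monocyte and macrophage genes, and only Cd4 among the T and NK cell genes. Ccr2 was at 86.9 to 134 CPM in the leukemic double mutant and 37.7 to 42.3 CPM in WT. Cd4 was at 0.0823 to 0.795 CPM and 4.05 to 5.09 CPM in these groups. Most of the B cell sum was Cd79b, while Cd79a and Ebf1 overlapped. Summed megakaryocyte markers (4 genes) were at 344 to 415 CPM in the double mutant and 89.1 to 199 CPM in Tet2-/-, and stromal and endothelial markers (5 genes) at 92.0 to 142 CPM in the double mutant and 168 to 261 CPM in Tet2-/-. The stromal and endothelial sum was almost all Pecam1, at 89.4 to 139 CPM in the double mutant and 166 to 259 CPM in Tet2-/-. At far lower levels, Kdr, Cdh5 and Col1a1 were higher in the double mutant without overlap, and Cxcl12 overlapped. Kdr was at 2.05 to 3.57 CPM in the double mutant and 0.877 to 1.89 CPM in Tet2-/-. B cell markers were at 37.0 to 49.3 CPM in the double mutant and 52.9 to 78.7 CPM in Tet2-/-. Dendritic cell markers (5 genes) overlapped between these groups, at 2102 to 3518 CPM in the double mutant and 1024 to 3838 CPM in Tet2-/-. The part of these cells in the results was not tested, and fewer cells of a type cannot be told apart from less RNA per cell in bulk libraries. T and NK cell markers were at most at 14.2 CPM in any library, and neutrophil markers reached 3636 CPM in 1 Nras(G12D) library. Monocyte and macrophage markers were at 452 to 517 CPM in the double mutant and 336 to 973 CPM in Tet2-/-.

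The targeted genes do not show the alleles in these totals. Tet2 was at 32.3 to 76.5 CPM in the leukemic double mutant, 47.9 to 62.6 CPM in the double mutant, 35.9 to 59.8 CPM in Tet2-/- and 50.7 to 65.2 CPM in WT, and the labels do not say which part is deleted. A single codon change in Nras cannot be read from gene totals either.

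Among genes that work with the 6, the changes between the double mutant and Tet2-/- went both ways. Counts for this contrast stand against 20.1% of tested genes called higher and 8.57% called lower, and counts for the leukemic double mutant over WT against 10.8% higher and 13.9% lower. The lists hold no member, and they were drawn up with earlier results of these data known. The lists had 28 called genes in all. B4galt1, Cep135, H2afj, H2afv, Mgat2, Ppp1cc, Rnf8 and Slc35a3 stayed past the threshold in each alternative that left out 1 library or changed 1 setting, and the other 20 lost their call without Tet2-/- library 1. With Tet2-/- libraries 1 and 3 both left out, which leaves 1 Tet2-/- library, no gene of the 7 lists was called, while 28 of the 28 kept their direction and 22 at least 0.5 of their log2 difference.

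The median log2 difference between the double mutant and Tet2-/- was 1.90 for the H2A variants, 0.84 for N-glycan branching, 0.76 for the SOX family, 0.66 for the RAS acylation cycle, -0.18 for tubulin folding, -0.41 for the centriole and phosphatase list and -0.58 for signalling from H2AX, against 0.0035 over all tested genes. Median centring moves each gene of this contrast by -0.47, so that 14.5% of tested genes were called higher and 29% lower. Under it 3 H2A variant genes were called higher and 0 lower, for N-glycan branching 3 and 3, for the RAS acylation cycle 1 and 5, for tubulin folding 0 and 12, for the centriole and phosphatase list 2 and 10 and for signalling from H2AX 3 and 7, and the calls of Lypla2, Man1c1, Man2a1 and Plk4 were lost. With scaling by total counts, where 21.2% of tested genes were called higher and 7.64% lower, 4 H2A variant genes were called higher and 0 lower, for N-glycan branching 6 and 1, for the RAS acylation cycle 4 and 2 and for tubulin folding 3 and 2, and the counts of the other lists were those given below. For the leukemic double mutant over WT, the calls given below for H2afj and Nbn were lost without leukemic library 2 or WT library 1, and those of Hras and Mgat2 also without leukemic library 3 or WT library 3.

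Of 18 other SOX family genes 5 were tested, and Sox18 was called higher, by a log2 of 3.65 ± 1.29 (limma, adjusted p = 0.0472), on levels of 0.942 ± 0.531 CPM in the double mutant and 0.112 ± 0.127 CPM in Tet2-/- (SD, n = 3 each). This call was lost with the replicate numbers as a block (limma, adjusted p = 0.0597) and in 13 alternatives in all. Among these were quantile normalization, leaving out any 1 WT library, and the GC and length correction (log2 2.02, limma, adjusted p = 0.168). Sox12, which with Sox4 and Sox11 forms the SoxC group, was at 10.3 ± 2.75 CPM in the double mutant and 6.00 ± 1.24 CPM in Tet2-/- (limma, adjusted p = 0.184). The list's median was -0.55 after the GC and length correction.

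The 5 other H2A variant genes were tested, and 3 rose and none fell. H2afj rose by 3.42 ± 0.60 (limma, adjusted p = 0.00472), with 17.1, 52.0 and 58.1 CPM in the double mutant and 2.15, 6.36 and 3.08 CPM in Tet2-/-. H2afv rose by 2.61 ± 0.46 (limma, adjusted p = 0.00472), with 157, 221 and 271 CPM in the double mutant and 21.05, 75.8 and 26.0 CPM in Tet2-/-. H2afy, which encodes macroH2A1, rose by 1.90 (limma, adjusted p = 0.0161). H2afj also rose in the leukemic double mutant over WT, by 2.28 ± 0.60 (limma, adjusted p = 0.0151).

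The 13 genes of signalling from phosphorylated H2AX split, with 3 rises and 3 falls. Rnf8, a ubiquitin ligase recruited to marked breaks, rose by 1.90 ± 0.40 (limma, adjusted p = 0.00562), and Nbn and Rnf168 rose by 1.59 and 1.19. Atm, the kinase that phosphorylates H2AX, fell by 0.95, Mdc1, the reader of that mark, fell by 0.90, and Prkdc fell by 0.75. Nbn rose in the leukemic double mutant over WT too, by 1.62 ± 0.39 (limma, adjusted p = 0.0114).

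Of 14 tested genes of the RAS acylation cycle, in which Abhd17a acts, 2 rose and 2 fell. Lypla2, a second acyl protein thioesterase gene, rose by 1.19 ± 0.35 (limma, adjusted p = 0.0225) and stood at -0.59 after the GC and length correction. Hras rose by 2.25 ± 0.69 (limma, adjusted p = 0.0272), with 2.82, 15 and 16.2 CPM in the double mutant and 1.64, 1.46 and 2.66 CPM in Tet2-/-. It also rose in the leukemic double mutant over WT, by 2.42 ± 0.69 (limma, adjusted p = 0.0219). Zdhhc9, the catalytic subunit of the RAS palmitoyltransferase, fell by 0.76, and Nras itself fell by 0.61 (limma, adjusted p = 0.0292). Zdhhc5, another palmitoyltransferase gene, passed with the replicate numbers as a block (log2 0.71; limma, adjusted p = 0.0571 without the block and 0.0340 with it).

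Of 22 tested genes of tubulin folding, in which Tbcc acts, none passed as higher, and Tuba4a and Vbp1 fell by 0.63 and 0.54 (limma, adjusted p = 0.0271 and 0.0417), the second no longer passing with the replicate block (limma, adjusted p = 0.0593). Vbp1 lost its call in 14 alternatives in all, among them the GC and length correction (log2 -0.35, limma, adjusted p = 0.195). Tbcd, another tubulin cofactor gene, Tubb2a and Tbcel lay just short of the threshold, at log2 differences of 1.31, 1.31 and 0.76 (limma, adjusted p = 0.0540, 0.0555 and 0.0502). These 3 passed with scaling by total counts and with a filter at 5 CPM, and Tbcd also with the block (adjusted p = 0.0223). In the leukemic double mutant over WT 4 of the 22 were called higher and none lower (10.8% and 13.9% of tested genes), and of these Pfdn1, Tuba1c and Tubb4b lost their call with scaling by total counts and Tubb2a without WT library 1.

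Of 12 tested genes of N-glycan branching 5 rose and 1 fell. Mgat2, which starts the second antenna of complex N-glycans, rose by 2.56 ± 0.56 (limma, adjusted p = 0.00679), with 50.5, 214 and 186 CPM in the double mutant and 16.5, 27.8 and 21.2 CPM in Tet2-/-. Slc35a3, the Golgi carrier of the sugar donor that Mgat4b uses, rose by 1.77 ± 0.34 (limma, adjusted p = 0.00472), and B4galt1, which caps the branches with galactose, rose by 1.91. Mgat4a, which encodes the sister enzyme of Mgat4b, fell by 0.99 (limma, adjusted p = 0.0217), so the genes of the 2 enzymes differed in opposite directions in this contrast. Man2a1 and Man1c1 also rose, by 0.87 and 1.16. The call of Man1c1 was lost with the replicate block (limma, adjusted p = 0.0378 without the block and 0.0519 with it). It was lost in 11 alternatives in all, among them the GC and length correction (log2 0.39, limma, adjusted p = 0.372). In the leukemic double mutant over WT, 5 of the 12 genes were called higher, against 10.8% of tested genes, among them Slc35a3 (1.43 ± 0.34; limma, adjusted p = 0.00977) and Mgat2 (1.82 ± 0.56; limma, adjusted p = 0.0307).

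The centriole and protein phosphatase 1 list, with Ppp1r35 left out, had 3 rises and 3 falls among 17 tested genes. Ppp1cc, a catalytic subunit of the phosphatase, rose by 2.67 ± 0.51 (limma, adjusted p = 0.00472), with 20.7, 104 and 90.9 CPM in the double mutant and 8.30, 9.38 and 9.62 CPM in Tet2-/-. Cep135, a centriole structural gene, rose by 1.38 ± 0.25 (limma, adjusted p = 0.00472), and Plk4, the kinase that starts centriole duplication, by 1.19. Cep192, Rttn and Cenpj fell by 1.06, 0.92 and 0.70 on the log2 scale. Ppp1cc rose in the leukemic double mutant over WT as well, by 2.31 ± 0.51 (limma, adjusted p = 0.00763).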

How the data were processed

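RNA from LSK cells went into stranded mRNA libraries, per the labels' protocols. The submitters' processing notes name STAR 2.4.0f1, limma 3.28.21, edgeR 3.14.0 and bcl2fastq, and the builds mm10 and NCBIM37 with no role; no source used here gives the counting tool, its annotation or its use of strand. The authors deposited log2 CPM values, 1 per gene symbol and library. Read from the values, 0.5 was added to each count and 1 to a scaled library size, and whole counts come back within a tolerance of 1e-06. CPM in the text is 2 raised to the deposited value. Columns were matched to samples by the description labels. Column N2-3 was taken as Nras(G12D) library 2 and each BMT column as the leukemic library of its number. Total counts per library ran from 22733189 to 43562909, and precision for low genes is limited by counts, which cover counting error only.

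The 13927 genes that reached 1 CPM in 3 or more libraries were fitted with limma 3.58.1 in R 4.3.3 (group means, all 15 libraries, 10 residual degrees of freedom, eBayes with an intensity trend). Two-sided tests were used, with Benjamini-Hochberg adjustment over all tested genes of a comparison and calls at an adjusted p below 0.05. The fit was tested on simulated data. The residual spread of a gene is pooled over the 5 groups, the Tet2-/- and double mutant libraries included. Differences are between log2 values that include the added 0.5 count, so those of low genes are understated. GC content, length and exons came from 1 transcript a gene of GENCODE M21 (GRCm38), found for 97.7% of tested genes. The GC and length correction was a loess fit per library with a span of 0.3. Promoters came from RefSeq and matched 4 of the 6 members.

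The members, gene lists and tests were chosen with earlier results of these data known. Besides the members, up to 3 genes per pathway list of smallest adjusted p between the double mutant and Tet2-/- were named by rule, and the 6 genes closest to the members' mean profile and 3 closest to Sox4. Other list genes were named after their values were seen. Marker lists covered LSK and stem cells, B cells, T and NK cells, neutrophils, monocytes and macrophages, dendritic cells, erythroid cells, megakaryocytes, and stromal and endothelial cells. Between the double mutant and Tet2-/-, deviations from the group means correlated at r = 0.137, 0.106 and 0.122 across genes for same-number libraries 1, 2 and 3. For libraries of different numbers in the same contrast, r was below 0 throughout, from -0.121 to -0.0056. The same-number values are small, and in another comparison Nras(G12D) library 3 and WT library 1, of different numbers, reached 0.468. Such values do not establish pairs, which the labels do not give either, so the replicate block is only an alternative setting. Alternatives were other scalings, filters, added counts and weights, a replicate block, a covariate of Y-linked genes, fits of the compared groups alone, and leaving out each library.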

Additional observations from a re-analysis of the deposited data

How the results depend on the processing

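With 3 libraries a group, 1 library often decided a count. Leaving out 1 library at a time gave 1356 to 5251 called genes in the leukemic double mutant against WT (3443 with all), 0 to 5 in Nras(G12D) against WT, 611 to 4679 in the leukemic double mutant against Nras(G12D) (2492 with all) and 1258 to 5243 in the double mutant against Tet2-/- (3999 with all). The low counts came without Tet2-/- libraries 1 or 3 (1258 and 1595), double mutant libraries 2 or 3 (1663 and 1439), WT libraries 1 or 3 (1356 and 1629), leukemic libraries 2 or 3 (1469 and 1855 against WT, 611 and 914 against Nras(G12D)) and Nras(G12D) libraries 1 or 3 (1518 and 826), and the high ones against WT and Nras(G12D) without leukemic library 1. Members called ran from 0 to 3 in the leukemic double mutant against WT and from 0 to 1 against Nras(G12D).

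Sample quality weights, whose estimation stopped before it converged, gave 10442, 1, 7804 and 9018 called genes in these 4 comparisons, with 6 members past the threshold in the leukemic double mutant against WT and 5 against Nras(G12D). Their estimates for Nras(G12D) against WT reversed, to -0.27 for H2afx, -0.46 for Tbcc, -0.55 for Ppp1r35, -0.13 for Abhd17a and -0.41 for Mgat4b. Fits of the compared groups alone called 1 gene in Nras(G12D) against WT, 3 in the leukemic double mutant against Nras(G12D), and 5 members in the leukemic double mutant against WT. Median centring called 6059 genes between the double mutant and Tet2-/-, and 3 were called without Tet2-/- libraries 1 and 3, where the lone library is assumed to vary like the other groups. The GC and length correction called 2 members in the leukemic double mutant against Nras(G12D), where it called 9.36% of tested genes higher and 10.6% lower.

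Leaving out 1 library at a time, the Nras(G12D) minus WT differences ran from -0.11 to 1.22 for Tbcc and from -0.055 to 1.33 for Ppp1r35, lowest without Nras(G12D) library 2 and highest without library 3. The Sox4 difference between the leukemic double mutant and Nras(G12D) reversed with scaling by total counts (-0.015) and, with 1 library left out, ran from -0.53 to 1.21. The causes were not tested.

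With the replicate block 3859 genes were called between the double mutant and Tet2-/-, 3673 in the leukemic double mutant against WT with 3 members (Tbcc added), 0 in Nras(G12D) against WT, and 2889 in the leukemic double mutant against Nras(G12D) with 1 member. In each of these comparisons the libraries are known to share only a number.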
